A study of Mus musculus with 12 samples.

Results

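Ribosome biogenesis was followed in the transcriptome of mouse gastruloids through 40 genes, taken from a given list of gene symbols that covers RNA polymerase I, the small nucleolar ribonucleoproteins (snoRNPs), nucleolar scaffold proteins and the assembly factors of both ribosomal subunits. The list is 40 of the 38911 genes in the deposited counts, and all 40 were detected and were among the 16966 genes that passed the filter on low counts. Gastruloids, which are aggregates that mimic the elongating embryo, were grown from E14TG2a cells, the only mouse embryonic stem (ES) cell line used, cultured in 2iLIF medium, and had received the Wnt agonist CHIR before the treatment. From day 3 to day 4 they were kept without glucose (0× glucose), in the usual 21.25 mM glucose (1× glucose), in 63.75 mM glucose (3× glucose) or in 1× glucose with 5 mM 2-DG (2-deoxy-D-glucose, a glucose analog). PolyA RNA was sequenced on day 4 from 3 libraries per group, 12 in all, each made from the pooled gastruloids of a treatment. The treatments of a replicate shared a plate, per the study's methods. The 3 libraries of a group are labelled P13, P15 and P16, read here as ES cell passage 13, 15 and 16. The comparisons ask whether 2-DG changed these transcripts, and whether removing or adding glucose did.

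Ribosomes are built in the nucleolus. RNA polymerase I transcribes the precursor of the ribosomal RNAs, snoRNPs guide the methylation and pseudouridylation of this precursor, and a large set of assembly factors folds, cuts and packs it into the precursors of the small and the large subunit. Growing cells, early embryonic cells among them, express these genes strongly, and factors of the Myc family are known to activate many of them. The ribosomal RNA itself carries no polyA tail, so the data report on the machinery and not on its product.

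The libraries held 31902471 to 45956080 counts, with 33666332 to 37496932 in 2-DG, 38439471 to 45956080 in 1× glucose, 31902471 to 34266196 in 0× glucose and 33336139 to 40744645 in 3× glucose. In a library the members had between 1948 (*Nop16*) and 92557 counts (*Npm1*). Levels are given as CPM, the counts relative to the library's total after TMM scaling (counts per 1e6), and the values of a group follow the order P13, P15 and P16. Tests are edgeR's quasi-likelihood tests over all 16966 genes, a gene was called at an adjusted p-value under 0.05, and SE stands for the standard error of the log2 fold change. *Hspa5*, an ER chaperone, was higher in 2-DG at a log2 fold change of 1.12 (SE 0.08, adjusted p = 5.12e-05). It was listed as responsive to the treatment with earlier results of these data known. These are bulk measurements, in which fewer cells of a type and less RNA per cell cannot be told apart. Exons of 12 members overlap a gene on the other strand (*Nop56*, *Dkc1*, *Nhp2*, *Polr1a*, *Nop14*, *Utp14a*, *Bysl*, *Bop1*, *Pes1*, *Rrp1b*, *Gnl3* and *Noc2l*). The kit marks strand, but whether the counting used it is not given in the sources used here.

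In 2-DG, 20 of the 40 ribosome biogenesis genes were called lower than in 1× glucose and 0 were called higher, where 8.51% of all genes tested were called lower and 9.12% higher. Among the 4323 genes whose mean CPM lay within the range of the members, 12.5% were called lower. The called members fell by 10.3% (*Rrp1*) to 26.4% (*Rrp9*). By role, the calls were 8 of 13 small subunit factors, 6 of 11 large subunit factors, 2 of 4 box H/ACA and 1 of 3 box C/D snoRNP proteins, 2 of 5 scaffold proteins and helicases and 1 of 4 members of RNA polymerase I. The median log2 fold change was −0.18 over the members, where 37 of 40 were below 0, and 0.00 over all genes. All 20 called members were lower in 2-DG in each of the 3 passages, with no overlap between the groups. Over the whole list, 23 members did not overlap and were lower and 1 (*Noc2l*) was higher, against 17.2% and 18.3% of all genes. The members' share of a library was 1.02% to 1.06% of the counts in 2-DG, and 1.09% to 1.15% in 1× glucose, 1.11% to 1.22% in 0× glucose and 1.12% to 1.17% in 3× glucose.

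**Figure D1:**
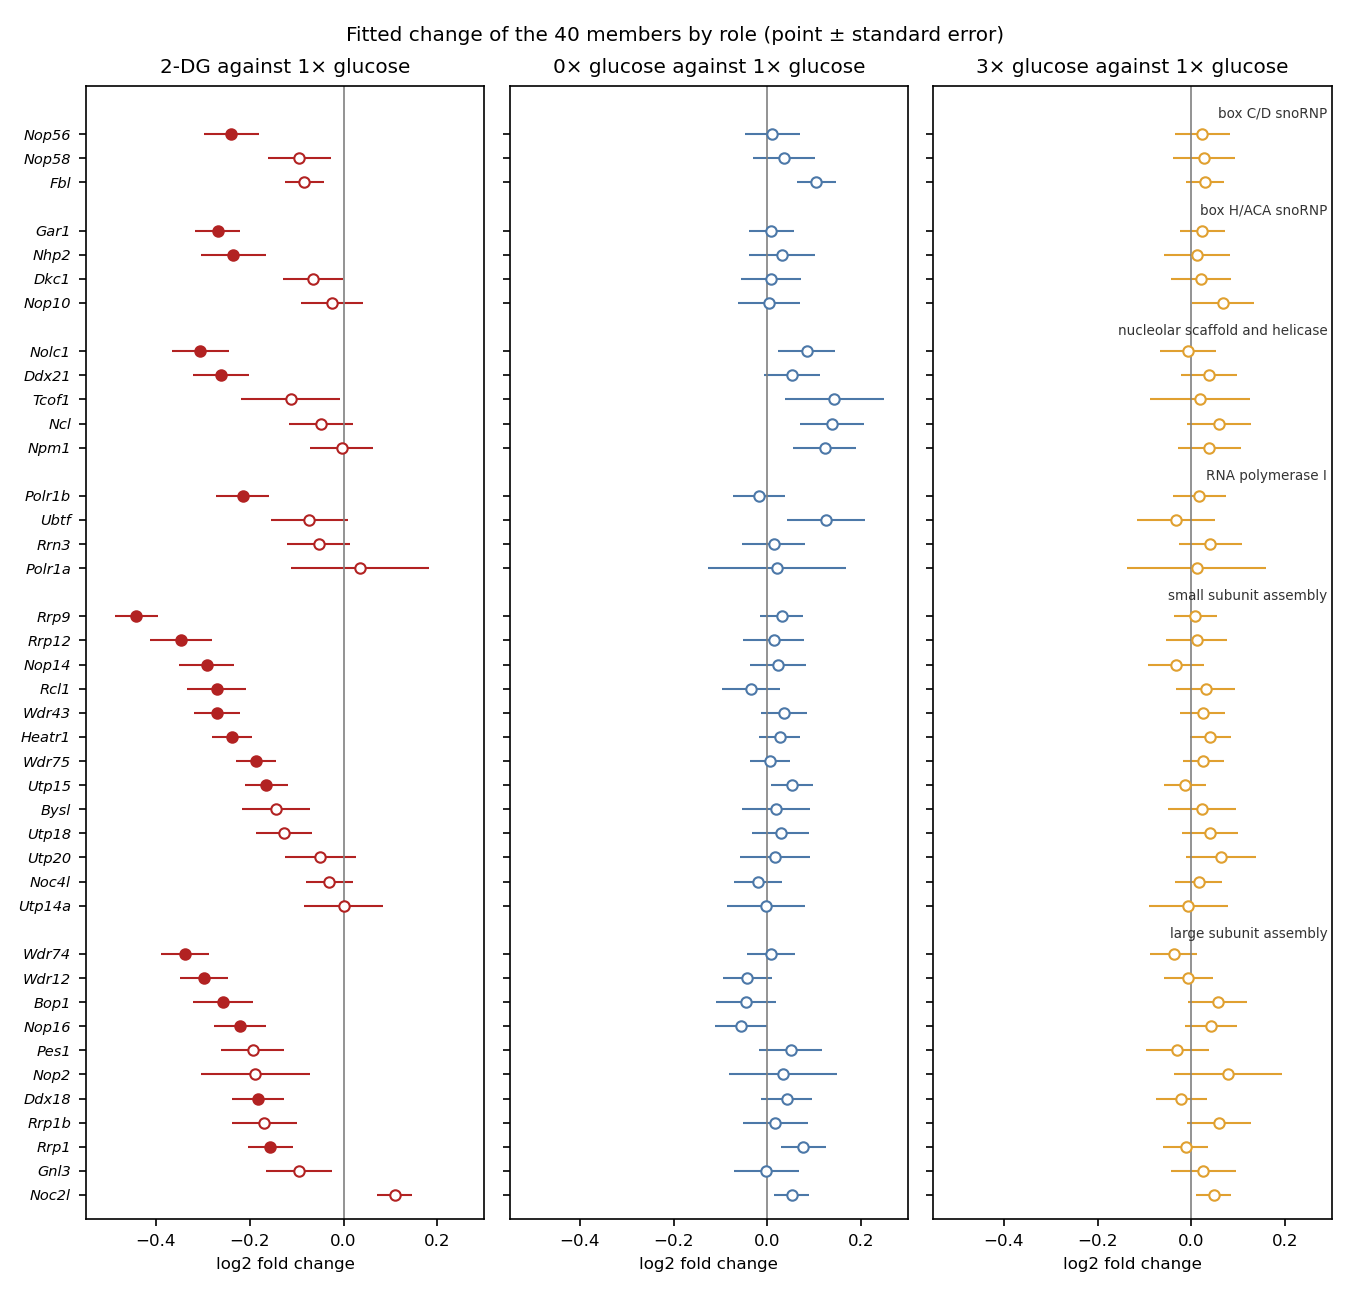
Fitted log2 fold change of each of the 40 members (x axis) in 2-DG, 0× glucose and 3× glucose against 1× glucose, sorted by role and by value (y axis), with bars for the standard error and filled points for members called at an adjusted p-value under 0.05. In 2-DG, 37 of 40 points lie below 0 and 20 are filled, while no point is filled in 0× or 3× glucose.

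Of the 4 members of RNA polymerase I, 1 was called. *Polr1b*, its second-largest subunit, had 113, 119 and 124 CPM in 1× glucose and 94.3, 106 and 107 CPM in 2-DG. Each 2-DG library lay below every 1× glucose library, at a log2 fold change of −0.22 (SE 0.06, adjusted p = 0.0249). *Polr1a*, the largest subunit, had 240.0, 303 and 339 CPM in 1× glucose and 253, 314 and 337 CPM in 2-DG. The 2-DG libraries lay within the range of 1× glucose and P13 was the lowest library of both groups, at a log2 fold change of 0.04 (SE 0.15, adjusted p = 0.907). *Rrn3*, the initiation factor that brings the polymerase to the ribosomal genes, had 142, 163 and 153 CPM and 139, 153 and 149 CPM, at −0.05 (SE 0.07, adjusted p = 0.655). *Ubtf*, which coats active ribosomal genes, had 201, 229 and 226 CPM and 196, 219 and 208 CPM, at −0.07 (SE 0.08, adjusted p = 0.611). Neither separated the groups. *Polr1b* lost its call without 2-DG P13 (adjusted p = 0.0685), 1× glucose P15 (0.0655) or 1× glucose P16 (0.0755).

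The snoRNP core proteins were split. Box C/D snoRNPs methylate ribosomal RNA, and of their 3 members only *Nop56* was called. It had 479, 462 and 422 CPM in 1× glucose and 392, 370.1 and 392 CPM in 2-DG, at a log2 fold change of −0.24 (SE 0.06, adjusted p = 0.0190). *Fbl*, the methyltransferase fibrillarin, had 258, 256 and 244 CPM and 238, 242 and 236 CPM. All 2-DG libraries of *Fbl* lay below those of 1× glucose, but by a small step, and it was not called (log2 fold change −0.08, SE 0.04, adjusted p = 0.192). *Nop58* was at −0.09 (SE 0.07, adjusted p = 0.374). Box H/ACA snoRNPs convert uridine to pseudouridine, and here both *Gar1* (log2 fold change −0.27, SE 0.05, adjusted p = 0.00439) and *Nhp2* (log2 fold change −0.24, SE 0.07, adjusted p = 0.0413) were called. *Dkc1*, the pseudouridine synthase dyskerin, was not, with 320.0, 311 and 284 CPM in 1× glucose and 301, 283 and 292 CPM in 2-DG (log2 fold change −0.06, SE 0.06, adjusted p = 0.545). *Nop10*, its small partner, had 90.5, 92.1 and 81.6 CPM and 89.2, 83.2 and 87.2 CPM (log2 fold change −0.02, SE 0.07, adjusted p = 0.844). For both genes the ranges of the groups overlapped.

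Among the nucleolar scaffold proteins and helicases, *Nolc1* and *Ddx21* were called and the most abundant transcripts of the list were not. *Nolc1*, a chaperone of snoRNPs, had 345, 367 and 347 CPM in 1× glucose and 282, 285 and 289.6 CPM in 2-DG. The 2-DG libraries lay close together and below all others, at a log2 fold change of −0.31 (SE 0.06, adjusted p = 0.00742). *Ddx21*, an RNA helicase of the nucleolus, went from 475, 502 and 485 CPM to 382, 409.7 and 428 CPM (log2 fold change −0.26, SE 0.06, adjusted p = 0.0137). *Ncl*, nucleolin, had 1876, 1998 and 1816 CPM in 1× glucose and 1823, 1819 and 1862 CPM in 2-DG (log2 fold change −0.05, SE 0.07, adjusted p = 0.694). *Npm1*, nucleophosmin, had 2032, 2024 and 1801 CPM and 1994, 1896 and 1952 CPM (log2 fold change 0.00, SE 0.07, adjusted p = 0.980). For these genes, P16 in 1× glucose was the lowest library of that group and lay below the range of 2-DG. *Npm1* also has processed pseudogenes in the mouse genome, and how reads shared with them were counted is not given in the sources used here. *Tcof1*, treacle, was at −0.11 (SE 0.11, adjusted p = 0.524).

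**Figure D2:**
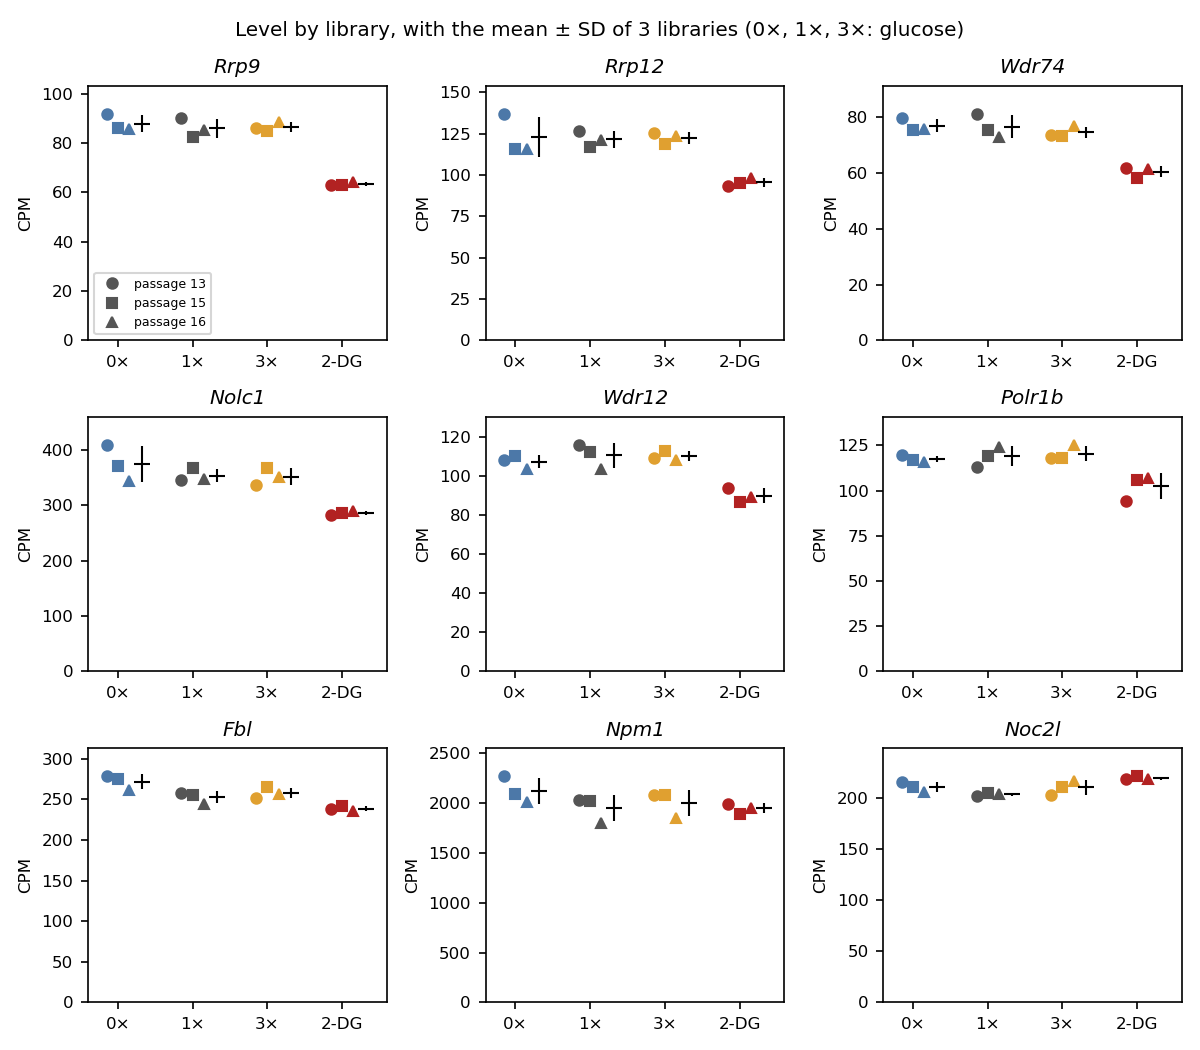
CPM (y axis, from 0) of 9 members by treatment (x axis), with a symbol for each ES cell passage and the mean ± SD of the 3 libraries beside them. The 5 members with the lowest log2 fold change and *Polr1b* have all 2-DG libraries below the others, the *Npm1* groups overlap, and *Noc2l* lies between 219 and 222 CPM in 2-DG and between 203 and 205 CPM in 1× glucose.

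Of the small subunit assembly factors, 8 of 13 were called lower, among them the member with the lowest log2 fold change. *Rrp9*, a protein of the U3 snoRNP that is needed for the early cuts of the precursor, had 90.3, 82.6 and 85.3 CPM in 1× glucose and 62.9, 63.0 and 64.2 CPM in 2-DG. The 0× glucose libraries had 91.7, 86.3 and 85.7 CPM and the 3× glucose libraries 86.2, 84.9 and 88.6 CPM, so that the 2-DG libraries stood apart from the other 9. Its mean ± SD was 86.1 ± 3.92 CPM in 1× glucose and 63.4 ± 0.746 CPM in 2-DG (n = 3 each), a log2 fold change of −0.44 (SE 0.05, adjusted p = 0.000284). *Rrp9* is a single RefSeq transcript at chr9:106477309-106485415 (GRCm38.p6). *Rrp12*, which helps pre-ribosomes leave the nucleus (chr19:41859483-41896153), went from 127, 117 and 121 CPM to 93.4, 95.0 and 98.4 CPM. The groups did not overlap, at −0.35 (SE 0.07, adjusted p = 0.00563). Also called were *Nop14* (−0.29), *Rcl1* (−0.27), *Wdr43* (−0.27), *Heatr1* (−0.24), *Wdr75* (−0.19) and *Utp15* (−0.16). *Wdr43*, *Heatr1*, *Wdr75* and *Utp15* are subunits of the UTP-A complex, which binds the precursor first. *Bysl* (−0.14, adjusted p = 0.205), *Utp18* (−0.13, adjusted p = 0.177), *Utp20* (−0.05) and *Noc4l* (−0.03) were not called. *Utp14a* had 108, 97.8 and 93.7 CPM in 1× glucose and 104, 93.6 and 102 CPM in 2-DG, at 0.00 (SE 0.08, adjusted p = 1.000). Its groups overlapped.

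Of the large subunit assembly factors, 6 of 11 were called lower. *Wdr74*, a WD-repeat protein that acts on early pre-ribosomes (chr19:8735795-8740624), had 81.0, 75.3 and 72.9 CPM in 1× glucose and 61.7, 58.2 and 61.5 CPM in 2-DG, at a log2 fold change of −0.34 (SE 0.05, adjusted p = 0.00181). *Wdr12*, which forms the PeBoW complex with *Pes1* and *Bop1*, had 116, 112 and 103 CPM and 94.0, 86.6 and 89.0 CPM, at −0.30 (SE 0.05, adjusted p = 0.00390). In both genes every 2-DG library was below every 1× glucose library. *Bop1* was called too (log2 fold change −0.26, SE 0.06, adjusted p = 0.0193), whereas *Pes1* was at −0.19 (SE 0.07, adjusted p = 0.0741) and reached a call when the passage entered as a replicate block (adjusted p = 0.00186). *Nop16* (−0.22), *Ddx18* (−0.18) and *Rrp1* (−0.16) were called, and *Rrp1b* (−0.17), *Nop2* (−0.19) and *Gnl3* (−0.09) were not. *Noc2l*, an inhibitor of histone acetylation that is also related to a yeast assembly factor, went the other way, with 203, 205 and 204 CPM in 1× glucose and 219, 222 and 219 CPM in 2-DG. The groups did not overlap. *Noc2l* was not called in the fit without a block (log2 fold change 0.11, SE 0.04, adjusted p = 0.0659), but it was with the passage as a replicate block (adjusted p = 0.0195) and by DESeq2 (adjusted p = 0.0196).

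**Figure D3:**
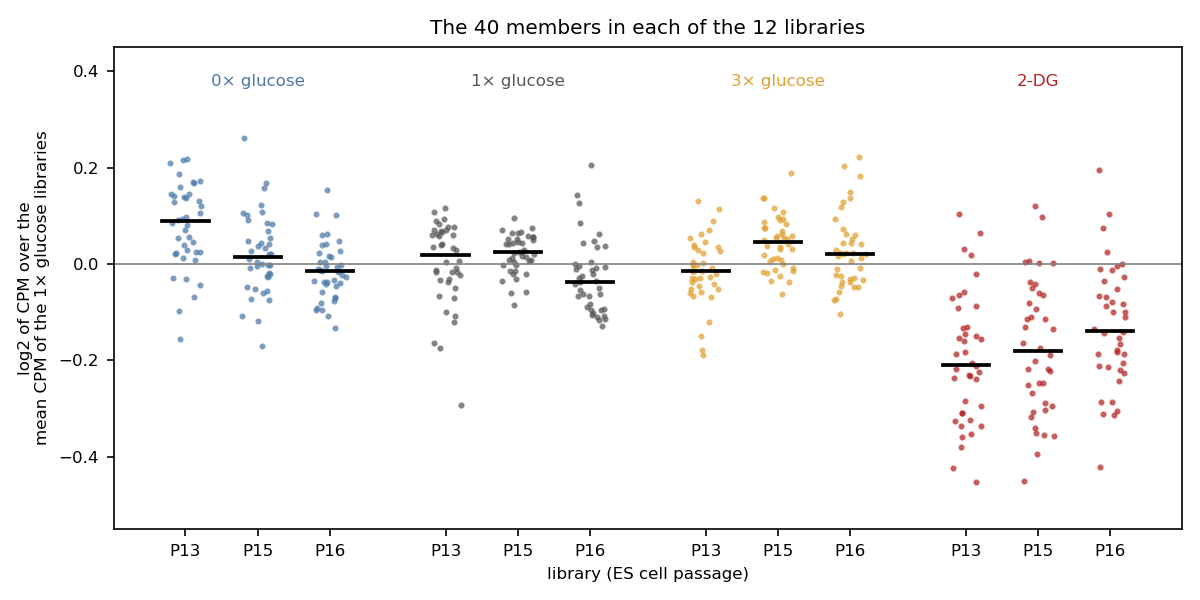
Each point is a member in a library (x axis, grouped by treatment, P13, P15 and P16), as log2 of its CPM over the mean CPM of the 1× glucose libraries (y axis), with a line at the median of the 40 members. The medians of the 2-DG libraries are −0.21, −0.18 and −0.14, and the other 9 lie between −0.04 and 0.09.

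Within a passage, the members' median log2 ratio of 2-DG to 1× glucose was −0.21 in P13, −0.19 in P15 and −0.10 in P16, with 38, 38 and 31 of 40 members below 0. The median of all genes was 0.02 in P13 and −0.00 in P15 and P16. With the passage as a replicate block, 25 members were called lower and 1 higher, against 20.2% and 21.1% of all genes. Added to the 20 were *Utp18* (adjusted p = 0.0376), *Bysl* (0.0451), *Nop2* (0.00762), *Pes1*, *Rrp1b* (0.0277) and *Noc2l*. When 1 library was left out, 12 to 19 members were called, with 12 without 1× glucose P15 and 12 without 2-DG P15. Of all genes, the fits without P13, P15 and P16 of 1× glucose called 5.99%, 5.04% and 6.93% lower, and those without P13, P15 and P16 of 2-DG called 5.66%, 4.51% and 5.46% lower. In all 6 of these fits the calls of 10 members held (*Gar1*, *Nolc1*, *Ddx21*, *Nop14*, *Wdr43*, *Rrp9*, *Rrp12*, *Heatr1*, *Wdr12* and *Wdr74*). *Ddx18*, *Nhp2*, *Rrp1* and *Utp15* each held in 1 fit, without 1× glucose P16. From the most abundant transcript of each gene alone, 33 members were below 0 and 4 were called (*Rrp9*, *Rrp12*, *Heatr1* and *Wdr74*), against 1.75% of all genes called lower, with a median standard error of 0.10 in place of 0.06 for the gene totals. *Ddx21* was at 0.11 in that fit, from a transcript with 82.4% of its counts, against −0.26 for its gene total. Fitting 2-DG and 1× glucose without the other groups, 12 members were called lower, against 5.02% of all genes.

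The RefSeq promoter windows, 250 bases before to 50 after a transcription start on GRCm38.p6, were available for 35 of the 40 members and were searched on both strands for 3 motifs of 6 letters, each counted whether or not it overlapped another. CACGTG, the canonical E-box that Myc proteins and other helix-loop-helix factors can bind, was found in a window of 6 members (17.1%), compared with 8.09% of the 27025 genes with a window. CACGCG, a non-canonical form, was found in 12 members (34.3%) and in 10.5% of all genes. TATAAA was found in 2 members (5.71%) and in 15.7% of all genes. The windows of the members are also richer in G and C, with a median of 58.7% against 52.7%, which bears on how often such letters occur, and the part of this was not tested. Of the members called lower in 2-DG, 1 of 18 with a window held CACGTG and 6 held CACGCG, and of the other members 5 of 17 and 6. With the calls of the fit that has the passage as a replicate block, the counts were 4 of 23 and 8 among the lower members and 2 of 12 and 4 among the others. Shown are the stretches before the start of the genes that hold such a motif there without an annotated exon, for CACGTG in all members and for CACGCG in those called lower. They are read along the gene from 20 bases before the first motif to the base before the start, with the motif in capitals. Those of *Rrn3* (chr16:13780464-13780698, plus strand), *Nop2* (chr6:125131803-125131882, plus) and *Utp18* (chr11:93885767-93885806, minus) hold CACGTG, in *Rrn3* at 2 places, and that of *Nolc1* (chr19:46075802-46075846, plus) holds the reverse complement of CACGCG.
Rrn3: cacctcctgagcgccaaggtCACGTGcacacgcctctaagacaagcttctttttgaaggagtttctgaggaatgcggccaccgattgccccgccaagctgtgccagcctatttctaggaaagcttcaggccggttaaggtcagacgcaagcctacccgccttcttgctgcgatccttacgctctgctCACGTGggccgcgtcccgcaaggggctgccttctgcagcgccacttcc
Nop2: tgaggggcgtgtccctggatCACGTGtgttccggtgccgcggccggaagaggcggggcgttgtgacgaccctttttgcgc
Utp18: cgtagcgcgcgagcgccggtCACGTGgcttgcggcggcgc
Nolc1: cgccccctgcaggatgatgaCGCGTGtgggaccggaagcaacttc
Of these genes *Nolc1* was called lower in 2-DG, *Nop2* and *Utp18* were called with the replicate block alone, and *Rrn3* was called in neither fit. A match of letters is a description and not a binding site.

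The 2-DG libraries were also compared with 0× glucose, which tests the difference between 2-DG and glucose removal directly. Here 21 members were called lower and 0 higher, against 9.04% and 9.86% of all genes, with a median log2 fold change of −0.20. The groups did not overlap for 31 members that were lower and 1 that was higher, against 18.6% and 19.3% of all genes. This comparison shares the 2-DG libraries with the comparison above, so the values are given side by side and are not independent. *Rrp9* was at −0.47 against 0× glucose (adjusted p = 0.000170) and −0.44 against 1× glucose. *Nolc1* was at −0.39 and −0.31, *Rrp12* at −0.36 and −0.35, *Wdr74* at −0.35 and −0.34, and *Polr1b* at −0.20 (adjusted p = 0.0329) and −0.22. *Fbl* had 278, 275 and 261 CPM in 0× glucose, above all of its 2-DG values, and was called against 0× glucose (log2 fold change −0.19, SE 0.04, adjusted p = 0.0105). *Pes1* was called as well (log2 fold change −0.24, SE 0.07, adjusted p = 0.0297). *Ncl* (log2 fold change −0.19, SE 0.07, adjusted p = 0.0831) and *Npm1* (log2 fold change −0.13, SE 0.07, adjusted p = 0.222) were not called. With the passage as a replicate block 30 members were called lower and 0 higher, against 21.5% of all genes in either direction, and these included *Ncl* (adjusted p = 0.0147), *Npm1* (0.0382), *Tcof1* (0.0105) and *Ubtf* (0.00201). From the most abundant transcript of each gene alone, 6 members were called lower against 0× glucose, and 2.1% of all genes were. When 1 library was left out, 14 to 19 members were called, with 14 without 0× glucose P13 and 14 without 2-DG P15, and 13 of the 21 held in all 6 fits. *Polr1b* and *Bop1* held in 0 of the 6, *Pes1* and *Rcl1* in 2, *Nhp2* and *Ddx18* in 3, *Nop56* in 4 and *Fbl* in 5. Of all genes, the fits without P13, P15 and P16 of 0× glucose called 6.7%, 5.62% and 6.31% lower, and those without P13, P15 and P16 of 2-DG called 5.83%, 5.23% and 5.67% lower.

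No member was called for a change in glucose alone. Between 0× and 1× glucose 0 members were called, against 0.0118% of all genes, and 1 had an unadjusted p-value under 0.05, against 1.8% of all genes. That member was *Fbl* at a log2 fold change of 0.10 (SE 0.04, unadjusted p = 0.0277), and its 0× glucose libraries lay above all 1× glucose libraries. The members' log2 fold changes ran from −0.06 (*Nop16*) to 0.14 (*Tcof1*), with a median of 0.02 and 32 of 40 above 0. The highest values were those of *Tcof1* at 0.14 (SE 0.11), *Ncl* at 0.14 (0.07), *Ubtf* at 0.12 (0.08) and *Npm1* at 0.12 (0.07), and none of them was called. *Ncl* had 2201, 2129 and 1927 CPM in 0× glucose and 1876, 1998 and 1816 CPM in 1× glucose, and was higher within each passage, most in P13. Within passages the members' median was 0.08 in P13, −0.00 in P15 and 0.01 in P16, and it was below 0 in the fits without 0× glucose P13, with library totals alone and without the filter on low counts. Between 3× and 1× glucose 0 members were called (0% of all genes) and 0 had an unadjusted p-value under 0.05 (1.05% of all genes). The range was −0.04 (*Wdr74*) to 0.08 (*Nop2*), with a median of 0.02. Over the full range of the dose, 3× against 0× glucose, 0 members were called (0.0118% of all genes) and 0 had an unadjusted p-value under 0.05 (4.33%). DESeq2 and the fit with the passage as a replicate block also called 0 members in these 3 comparisons. Of all 16966 genes, the fit with the block called 3 lower and 0 higher in 0× against 1× glucose and 0 in 3× against 1× glucose. In 3× against 0× glucose it called 39 lower and 97 higher. Its unadjusted p-value was under 0.05 for 4, 0 and 4 members, and for 1591, 876 and 2742 of all genes. The calls of DESeq2 over all genes are not given here. Standard errors of the members were 0.04 to 0.15 with a median of 0.06, which limits the size of a change that could be called.

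Some members varied with the ES cell passage. With treatment and passage in 1 model, 10 of 40 members differed between passages, and 46.2% of all genes did. In P15 against P13, 5 members were called higher and 3 lower, against 20.8% and 20.9% of all genes. For P16 against P13, 8 were called higher and 6 lower (20.4% and 19.7% of all genes), and for P16 against P15, 1 was called higher and 0 lower (2.19% and 2.01%). *Polr1a* had the largest range over the passage means, at 254 ± 10.1 CPM in P13, 305 ± 6.99 CPM in P15 and 334 ± 5.32 CPM in P16 (SD over the 4 treatments). It was 0.40 log2 units higher in P16 than in P13 (SE 0.03, adjusted p = 1.17e-05), with no overlap between the libraries of these passages. *Nop2* had 197, 231 and 234 CPM in 1× glucose and 164, 204 and 212 CPM in 2-DG, and was 0.27 log2 units higher in P16 than in P13 (SE 0.04, adjusted p = 0.000426). *Tcof1* had 159, 182 and 199 CPM in 1× glucose, 202, 201 and 193 CPM in 0× glucose and 140.4, 180.2 and 179 CPM in 2-DG, and was 0.21 log2 units higher in P16 than in P13 (SE 0.06, adjusted p = 0.0169). For *Tcof1* the 0× glucose libraries did not share the low value of P13. *Ubtf* and *Rrn3* were also higher in P15 than in P13, by 0.20 (adjusted p = 0.000750) and 0.17 (adjusted p = 0.000313), while *Utp14a*, *Pes1*, *Dkc1*, *Npm1*, *Gnl3* and *Nop58* were lower in P16 than in P13. Each passage is 1 label shared by 4 libraries, so these tests cover the spread between libraries and may not cover that between cultures. Passage and plate cannot be told apart here. The count was 5 without 1× glucose P13 (34% of all genes), 6 without 3× glucose P16 (39.7%), 3 from the most abundant transcript of each gene (11.2%) and 17 when the libraries were scaled by their totals alone (47%).

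**Figure D4:**
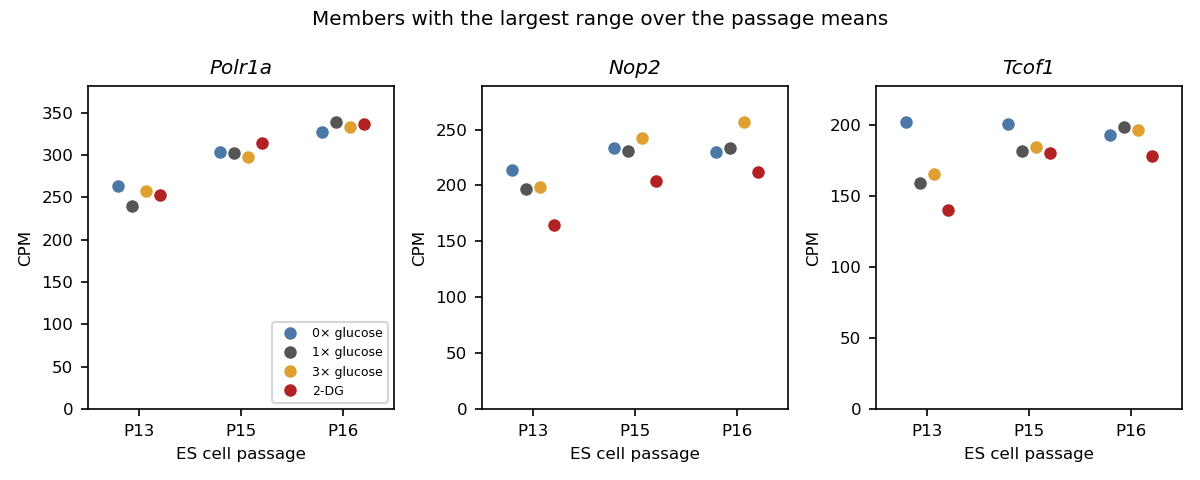
CPM (y axis, from 0) of the 3 members with the largest range over passage means, by ES cell passage (x axis), with a point for each treatment. All 4 libraries of *Polr1a* lie between 240.0 and 264 CPM in P13 and between 327 and 339 CPM in P16.

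Other factors of the same pathway, listed from general knowledge, were called lower in 2-DG in 52 of 123 cases and higher in 1, where 8.51% and 9.12% of all genes were. They were listed with earlier results of these data known and measured in the same libraries, so they are no independent test. Of 41 further small subunit factors, 19 were called lower and 0 higher, with a median log2 fold change of −0.19, and the lowest were *Tbl3* at −0.34 (SE 0.04, adjusted p = 0.000529) and *Wdr46* at −0.33 (SE 0.08, adjusted p = 0.0182), both of the complexes that bind the precursor early. *Tbl3* had 118, 112 and 113 CPM in 1× glucose and 86.8, 90.5 and 92.2 CPM in 2-DG. Of 49 further large subunit factors, 22 were called lower, with a median of −0.17, led by *Tex10* at −0.42 (SE 0.05, adjusted p = 0.000434) and *Ebna1bp2* at −0.38 (SE 0.06, adjusted p = 0.00160). The 1 called higher was *Nop53*, with 203, 194 and 196 CPM in 1× glucose and 229, 228 and 228 CPM in 2-DG (0.21, SE 0.04, adjusted p = 0.00642). Of 12 further subunits and factors of RNA polymerase I, 3 were called lower, among them *Polr1e* (−0.39, SE 0.10, adjusted p = 0.0209) and *Taf1b* of the promoter selectivity factor (−0.38, SE 0.09, adjusted p = 0.0187), and the median was −0.14. Assembly factors of snoRNPs were called in 3 of 9 cases, with a median of −0.17, and these included *Shq1*, a chaperone of dyskerin (−0.27, SE 0.07, adjusted p = 0.0287), and *Znhit6* (−0.27, SE 0.08, adjusted p = 0.0418). The RNA exosome, which trims the precursor, had 5 of 12 genes called lower and a median of −0.14, with *Exosc9* at −0.38 (SE 0.08, adjusted p = 0.0121) and *Exosc7* at −0.33 (SE 0.07, adjusted p = 0.0133). In these 5 lists together, 70 genes were not called and 12 were above 0. None of the 123 was called in 0× or 3× glucose against 1× glucose, where 55 and 64 of them were below 0.

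**Figure D5:**
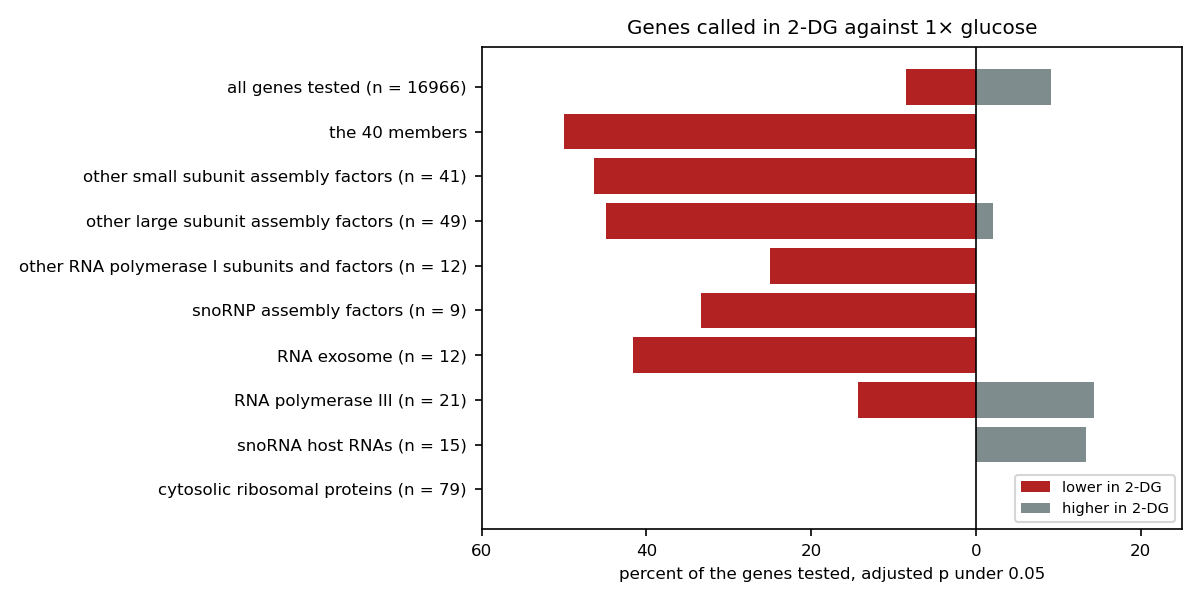
Percent of the genes tested (x axis) that were called lower (left) or higher (right) in 2-DG against 1× glucose, for all genes, the 40 members and further lists (y axis, n is the number of genes tested). The calls are those of the fit without a block. The members have 20 of 40 called lower, and the cytosolic ribosomal proteins have none called.

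A list of 9 genes held *Myc*, *Mycn* and *Mycl*, their partner *Max*, and *Mxi1*, *Mxd1*, *Mxd3*, *Mxd4* and *Mnt*, which can oppose Myc. Of the 9, 1 was called lower and 0 higher, against 8.51% and 9.12% of all genes. *Mycn*, the member prominent in early embryos, had 126, 147 and 147 CPM in 1× glucose and 74.6, 94.0 and 96.9 CPM in 2-DG. The groups did not overlap, at a log2 fold change of −0.66 (SE 0.11, adjusted p = 0.00281). *Myc* was at −0.05 (SE 0.17) and *Max* at −0.13 (SE 0.09). The median of the 9 was −0.13, which pools genes of opposite action. The part of *Mycn* in the members' change was not tested.

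Markers of cell types moved with 2-DG beside the members. Of 8 mesoderm markers 3 were called lower (*T/Bra*, *Mixl1* and *Hes7*) and 0 higher, where 8.51% and 9.12% of all genes were. Their summed level was 1341 to 1524 CPM in 1× glucose, 1394 to 1497 in 0× glucose, 1344 to 1527 in 3× glucose and 765 to 1196 in 2-DG. *Dll1* had the most counts of the 8 in every library, with 23640, 29344 and 36312 in 1× glucose and 16842, 29874 and 27003 in 2-DG. Of 7 neural markers 3 were called higher (*Sox1*, *Pax6* and *Irx3*) and 1 lower (*Nkx6-1*), with sums of 65.4 to 179 CPM in 1× glucose and 131 to 312 in 2-DG. *Sox2*, which was not called, had the most counts of the 7 in every library. It had 5479, 1647 and 1950 in 1× glucose and 5343, 2724 and 2414 in 2-DG, so the neural sums depend on this gene and on the passage. Pluripotency markers summed to 43.3 to 60.5 CPM in 1× glucose and 59.4 to 71.5 in 2-DG, with 1 of 7 called lower (*Dppa5a*). *Pou5f1*, not called, had the most counts of these 7 in every library. Of 6 endoderm markers 1 was called lower (*Trh*), with sums of 26.2 to 196 and 22.4 to 75.8 CPM. *Cer1* had the most counts of the 6 in all P15 and P16 libraries. It had 28, 6101 and 2345 counts in 1× glucose and 202, 2114 and 519 in 2-DG, so the endoderm sums depend on this gene and on the passage. Of 7 feeder fibroblast markers 5 were tested and 0 were called, and their sums were 11.5 to 15.3 CPM in 1× glucose and 10.6 to 14.5 in 2-DG. *Lum* was at or under 3 counts in all 12 libraries and *Postn* was at 0 in all P13, P15 and 2-DG libraries, with 8 to 16 counts in the other P16 libraries. All 4 genes listed as responsive to the treatment (*Txnip*, *Arrdc4*, *Hspa5* and *Ddit3*) were called higher, with sums of 779 to 833 CPM in 1× glucose and 1497 to 1828 in 2-DG. These 4 were listed with earlier results of these data known, so their calls are no test of the treatment. The part of these shifts in the members' change was not tested.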

How the data were processed

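PolyA RNA of 12 libraries, 3 per group, was measured. Per the study's methods the authors trimmed reads with Trim Galore, aligned them with HISAT2, removed PCR duplicates with Picard, which can hold down the counts of abundant transcripts, and used StringTie on Galaxy, with mm10 and SAMtools named in the submitters' processing notes. Versions, annotation and strand setting are not given in the sources used here. The authors deposited estimated counts of 120312 RefSeq transcripts per library as whole numbers, so no rounding was needed. They also deposited tables of log2 fold changes and p-values from DESeq2, which were not used.

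Transcripts were assigned to genes with the RefSeq table of GRCm38.p6 (100% matched) and summed to 38911 genes. The members are listed with 113 transcripts, and 29 members with more than 1. Genes were kept with filterByExpr (16966) and fitted in R 4.3.3 with edgeR 4.0.16 (TMM, glmQLFit, glmQLFTest), all 4 groups in 1 model without a block. Tests were two-sided with Benjamini-Hochberg adjustment across the 16966 genes, and standard errors were taken from the F statistic. Passages were tested with treatment and passage as additive terms. The titles label each library P13, P15 or P16. This was read as the ES cell passage, which the titles do not spell out, and it pairs libraries across groups. Over all genes, deviations from the group means correlated at 0.0797 to 0.583 in 18 pairs of the same passage and at −0.401 to 0.157 in 36 pairs of different passages. Over the members alone the ranges were 0.00538 to 0.870 and −0.907 to 0.772, which overlap widely. Per the study's methods, a biological replicate used 1 plate, and the treatments were run on gastruloids of the same plate. Libraries of a passage are therefore read as paired by plate, which the fit without a block does not use. Its common dispersion was 0.0316, and it was 0.00630 with the block. The p-values measure the spread between these libraries. At most 9.67% of values (mean of at least 10 counts) were identical between any pair of libraries. TMM factors were 0.977 to 1.03.

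The members, their roles, the further lists and the tests were chosen with earlier results of these data known. Named with values per library were *Polr1a*, *Polr1b*, *Rrn3*, *Ubtf*, *Fbl*, *Ncl*, *Npm1* and *Dkc1*, the 5 highest and 5 lowest members in 2-DG against 1× glucose, any member called in 0× or 3× glucose (none was), and the 3 members with the largest range over passages. Of each further list the 2 called highest and the 2 called lowest genes were named, of which 1 is not reported here, with values per library for *Tbl3*, *Nop53*, *Snhg18* and *Mycn*, chosen after their values were seen. *Nop56* and *Ddx21* were added after their values were seen. Alternatives were the passage as a replicate block, median-of-ratios factors, library totals alone, no filter, the most abundant transcript, DESeq2 1.42.0, only the groups compared, and leaving out each library. For single members against 0× glucose, the further lists and single members by passage, these were added after seeing the data. Simulated counts with known changes served to test the scripts.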

Additional observations from a re-analysis of the deposited data

How the results depend on the processing

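With the passage as a replicate block, 26 members were called in 2-DG against 1× glucose in place of 20, and the block also raised the count against 0× glucose from 21 to 30, while it left 0 calls for the glucose comparisons. Of the other fits for 2-DG against 1× glucose, the most abundant transcript gave 4 calls, only the groups compared gave 12, and leaving out a library gave 12 to 19. The median over the members stayed between −0.19 and −0.16 in all of these fits. Against 0× glucose the most abundant transcript gave 6. For passages, library totals alone gave 17, the most abundant transcript 3 and leaving out a library 5 to 13. Single transcripts had larger standard errors and some of these fits had fewer libraries. The cause was not tested.

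Signs turned for members near 0 and for single transcripts. From the most abundant transcript, *Fbl* was at 0.0447, *Npm1* at 0.056, *Tcof1* at 0.494, *Ddx21* at 0.108 and *Znhit6* at 0.238 against 1× glucose, and *Nop56* at 0.170 against 0× glucose. Leaving out a library gave −0.0610 to 0.0267 for *Npm1*, −0.0913 to 0.149 for *Polr1a*, −0.0471 to 0.0618 for *Utp14a* and −0.115 to 0.0154 for *Utp20*. *Utp14a* was also at −0.0024 with median-of-ratios factors, −0.0088 with library totals alone, −0.019 without the filter, −0.0025 by DESeq2 and −0.0012 with only the groups compared. Of the 234 fits of the further genes named, 67 lost the call and 166 kept it, and of the 18 genes 7 were called in all 6 fits without a library (*Ebna1bp2*, *Mycn*, *Nop53*, *Polr3c*, *Polr3e*, *Tbl3* and *Tex10*). Without 2-DG P15, 10 lost it, *Exosc7* and *Exosc9* among them, and without 1× glucose P13, 8 did. With 3 libraries a group, small shifts could not be called.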

Other observations

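Genes that serve the ribosome outside its assembly were also measured in 2-DG against 1× glucose. Of 79 cytosolic ribosomal protein genes, edgeR's quasi-likelihood test without a block called 0, against 8.51% of all genes called lower and 9.12% higher. Of the 79, 4 had an unadjusted p-value under 0.05 and 65 were above 0, with a median log2 fold change of 0.06. In 0× glucose 0 were called as well (0.0118% of all genes), 4 had an unadjusted p-value under 0.05, and 71 were above 0, with a median of 0.07. These genes varied with the passage. In P15 and P16 against P13, 59 and 66 of the 79 were called lower, against 20.9% and 19.7% of all genes. The fit without a block counts that spread as error, and calls with the block are not given here for these genes. Of 15 RNAs that host snoRNAs in their introns, 2 were called higher and 0 lower, against 9.12% and 8.51% of all genes. *Snhg18* had 3.71, 3.60 and 3.59 CPM in 1× glucose and 5.53, 4.96 and 5.06 CPM in 2-DG (0.51, SE 0.16, adjusted p = 0.0459), and *Snhg3* was at 0.27 (SE 0.08, adjusted p = 0.0432). Both lost the call in every fit that left out a library.

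RNA polymerase III makes 5S ribosomal RNA and transfer RNAs. Of its 21 genes, 3 were called lower and 3 higher, against 8.51% and 9.12% of all genes, with a median of −0.03. *Polr3g*, a subunit linked to pluripotent cells, was at −0.28 (SE 0.07, adjusted p = 0.0154), whereas *Polr3e* was at 0.22 (SE 0.04, adjusted p = 0.00335) and *Polr3c* at 0.20 (SE 0.04, adjusted p = 0.0110). Of the ribosomal RNA transcripts listed, *Rn28s1* had 0 counts in all 12 libraries and *Rn5s* at most 1, so neither was tested.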
